A study of Mus musculus with 6 samples.

Results

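The 61 genes described here had RNA with little transcription label in wild-type zygotes, a like level of RNA in 2-cell embryos, and more label there. Little label does not show that the RNA of zygotes was stored and not newly made. They were found among 23259 gene names in a deposited table that counts reads and, among them, those holding a T-to-C mismatch, called T-to-C reads. A gene entered with at least 300 reads and a T-to-C share (T-to-C reads as a percent of the gene's reads) under 4% in wild-type zygotes, a share of at least 10% in 2-cell embryos, and a 2-cell level of 0.5 to 2 times the zygote level. Levels are RPM, the reads of a gene scaled to the total of its column. Of 2112 genes with 300 zygote reads, 1794 also met the zygote share limit and 886 also the level limits. The 2-cell share limit was then met by 68 genes (7.67% of the 886), and 7 of these were left out because of their names (families of histone, Zfp, Slc and Oog genes among them). The 61 genes were thus chosen by their wild-type zygote and 2-cell values, which are given as a description, with no test.

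Transcripts stored during oocyte growth carry the embryo through fertilization, are degraded in the maternal-to-zygotic transition, and are joined or followed by RNA from the embryo's own genome, which in mice becomes broadly active at the 2-cell stage. A gene whose total RNA stays level across this handover can hide both decay and new transcription, which metabolic labelling can separate. 4-thiouridine (S4U) is a uridine analogue built into RNA as it is made, and after alkylation with iodoacetamide its positions are read as T-to-C mismatches. In oocytes and early embryos the poly(A)-binding protein PABPN1L acts in the removal of maternal mRNA, together with BTG4 and the deadenylase CCR4-NOT.

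The groups were wild-type (WT) mouse zygotes, WT 2-cell embryos, and zygotes labelled Pabpn1l-null, with 2 samples per group and 6 in all. Each sample pooled 50 embryos from mated females, and ribosomal RNA was depleted after labelling. The protocol text gives 200 μM S4U for 2 h from 26 h after the injection of hCG, the hormone that triggers ovulation. That text is the same for every sample and speaks of zygotes only, so the label time of the 2-cell embryos is not known. The sources used here do not give the collection time of the 2-cell embryos, the strain, the Pabpn1l allele or which parent carried it. They also do not say whether the single pair of columns that the table has for each group merges the samples, so no difference below has a replicate check or a p-value. Levels are relative to the reads of each column, with no spike-in given, and in these pooled embryos fewer cells of a type and less RNA per cell cannot be told apart.

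The WT zygote column held 3001472 reads, the null zygote column 1270347 and the 2-cell column 4020444, of which 3.03%, 3.86% and 4.54% were T-to-C reads. No unlabelled control was used here, so an unknown part of the T-to-C reads comes from sequencing error or sequence differences. The counts of Pabpn1l and of markers that follow are raw reads. They are not scaled to the column totals above, so their order across columns is not an order of levels. For Pabpn1l itself, reads numbered 47 in the WT zygote column, 4 in the null column and 14 in the 2-cell column. Summed reads of 10 oocyte markers were 44986, 24241 and 12676 in the same order, and those of 7 2-cell markers were 57, 20 and 14576. Among 15 cumulus and granulosa cell markers the sums were 133, 27 and 74 with 7 markers at 0 throughout, among 8 sperm markers 8, 0 and 4 with 4 at 0, and among 4 blood markers 42, 1 and 39 with 1 at 0. Low counts were clumped in the null column: of 1488 genes expected at 3 to 6 null reads from WT zygotes, 51.2% had 0, where independent reads would give 1.51%. Each 7 reads were therefore counted as 1 molecule in the exact 95% Clopper-Pearson intervals below, which cover counting error only, since PCR reads without molecular identifiers are not independent molecules. This factor came from the null column and was also used for the WT zygote and 2-cell columns, for which no such figure is given.

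The promoters of 4 of the genes are shown because these genes had the highest or the most abundant label at the 2-cell stage: Ccndbp1 with the highest T-to-C share, Tfap2e and Cops4 also among the highest, and Dusp7 with the most T-to-C reads after Zbed3. Each sequence is the 250 bases before the start used for a RefSeq promoter window of the gene on GRCm38.p6, 5′ to 3′ on the gene's strand. They lie at chr2:121008158-121008407 (plus strand), chr4:126736270-126736519 (minus), chr5:100518059-100518308 (plus) and chr9:106368382-106368631 (plus). For Ccndbp1, Cops4 and Dusp7 that start lies within the gene's RefSeq span, so the last bases printed are inside it. Capitals mark matches on either strand to GGGCGG, the GC box of Sp and Klf factors, or to CCAAT, the box read by NF-Y, with the reverse complement in capitals where the match is on the other strand.
Ccndbp1: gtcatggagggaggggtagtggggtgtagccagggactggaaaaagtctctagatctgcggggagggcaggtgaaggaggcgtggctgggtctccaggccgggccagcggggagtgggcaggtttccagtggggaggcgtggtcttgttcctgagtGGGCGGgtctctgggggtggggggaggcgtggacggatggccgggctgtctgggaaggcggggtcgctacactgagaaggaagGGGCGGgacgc
Tfap2e: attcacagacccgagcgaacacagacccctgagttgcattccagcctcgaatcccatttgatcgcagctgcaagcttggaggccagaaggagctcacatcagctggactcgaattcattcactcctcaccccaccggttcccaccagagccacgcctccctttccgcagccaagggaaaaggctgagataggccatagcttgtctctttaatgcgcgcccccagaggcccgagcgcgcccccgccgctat
Cops4: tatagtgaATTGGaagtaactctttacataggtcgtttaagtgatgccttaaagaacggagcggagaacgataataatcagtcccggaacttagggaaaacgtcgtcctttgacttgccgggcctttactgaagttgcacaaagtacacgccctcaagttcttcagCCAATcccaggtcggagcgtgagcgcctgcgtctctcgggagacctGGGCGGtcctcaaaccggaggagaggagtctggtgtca
Dusp7: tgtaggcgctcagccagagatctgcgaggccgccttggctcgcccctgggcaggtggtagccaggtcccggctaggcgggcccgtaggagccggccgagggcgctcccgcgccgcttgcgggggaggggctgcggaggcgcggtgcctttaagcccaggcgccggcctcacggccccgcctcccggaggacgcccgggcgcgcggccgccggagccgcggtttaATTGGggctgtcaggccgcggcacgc
The printed bases of Ccndbp1 hold GGGCGG at 2 places, those of Cops4 hold both motifs, those of Dusp7 hold CCAAT alone, and those of Tfap2e hold neither. With the 50 bases after the start, which are not printed, GGGCGG is found at all 4 genes.

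At the 2-cell stage the T-to-C share of the 61 genes ran from 10.1% to 50.2%, with a median of 15.2% and quartiles of 12.5% and 20.7%. In WT zygotes their share lay between 0.606% and 3.85%, with a median of 1.94%. Summed over the genes, 19038 of 135905 2-cell reads were T-to-C reads, or 14.0% (13.5% to 14.5%), and 16.4% without Zbed3, which supplied the most. The 61 genes held 3.38% of all 2-cell reads and 10.4% of all 2-cell T-to-C reads. In WT zygotes they held 3.63% of reads and 2.12% of T-to-C reads. Of the 61 genes, 29 had a share under 15%, 16 reached 20% and 5 reached 30%. The lower end of the 2-cell interval lay under the 10% limit for 26 genes, and above the zygote limit of 4% for 60, all but Gtpbp1.

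**Figure D1:**
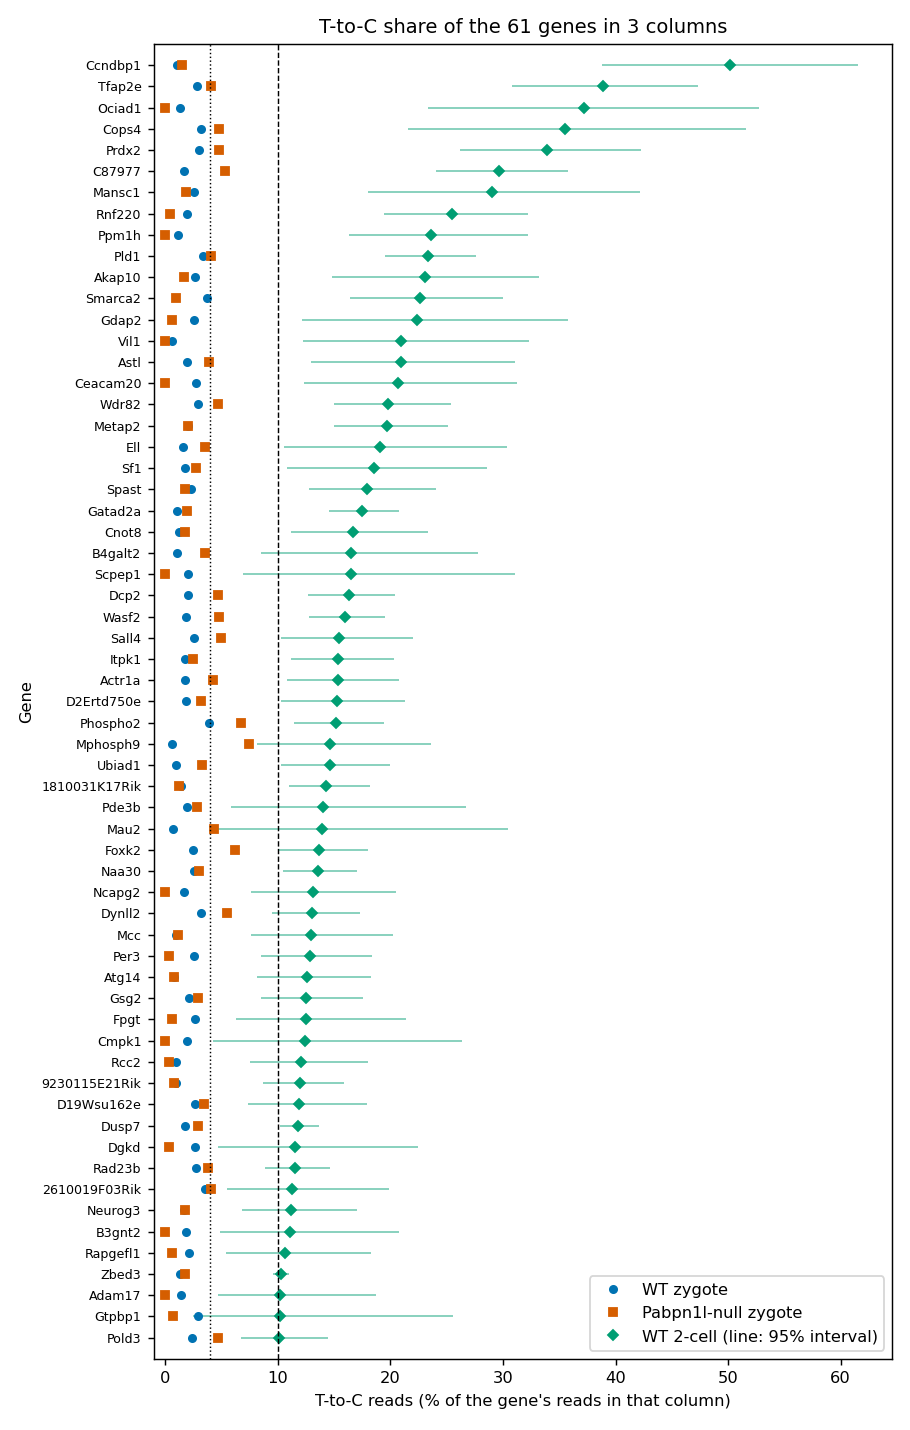
T-to-C share of each of the 61 genes (percent of the gene's reads, x axis) in WT zygotes (circles), Pabpn1l-null zygotes (squares) and WT 2-cell embryos (diamonds, with 95% counting intervals as lines); the dotted and dashed lines mark the limits of 4% and 10%. The 2-cell shares run from 10.1% to 50.2%, and the null shares reach 7.41%.

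A scale for these shares is given by genes whose RNA was gained at the 2-cell stage. Among 140 genes with under 10 WT zygote reads and at least 300 2-cell reads, the median 2-cell T-to-C share was 2.18%, the third quartile 4.99% and the highest 51.6%. Only 18 of the 140 (12.9%) reached 10%, and 97 (69.3%) were under 4%. RNA that was absent from zygotes thus often carried little label in this window, and a low share does not show that a gene had no RNA made by the embryo. The 786 genes that met the same zygote and level limits with a 2-cell share under 10%, used as comparison genes below, had a median share of 1.86%. Of all 2569 genes with at least 300 2-cell reads, 268 (10.4%) reached 10%.

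**Figure D2:**
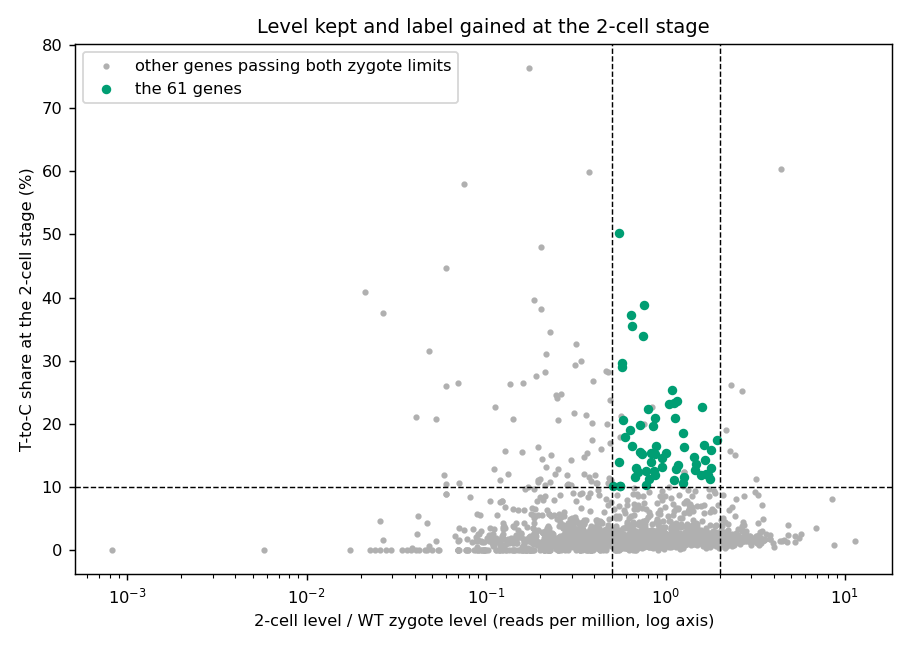
2-cell level relative to the WT zygote level (ratio of RPM, log axis) against the T-to-C share at the 2-cell stage (percent) for the 61 genes (green) and for other genes that met both zygote limits (grey), leaving out 2 genes with no 2-cell reads. Dashed lines mark the limits of the rule: 77 genes with a share of at least 10% lie below the level limits and 7 lie above.

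Of 152 genes that met the zygote limits and had a 2-cell share of at least 10%, 77 lay below the level limits, 7 above and 68 within. Of all 1794 genes that met the zygote limits, whatever their 2-cell share, 737 lay below and 886 within. Values next to the limits were close. Pold3 entered at a 2-cell share of 10.1% and Arap2 stayed out at 9.97%; Pold3, at a level of 0.507 of the zygote, was also just inside the lower limit, and Vps39 at 0.496 just outside. Gatad2a was inside the upper limit at 1.94 and Dbf4 outside at 2.17. Phospho2 entered at a zygote share of 3.85% where Il7 stayed out at 4.08%, and Cmpk1 entered with 309 zygote reads where B3gntl1 stayed out with 299.

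The 2-cell level of the 61 genes was 0.507 to 1.94 times the WT zygote level, with a median of 0.872, and lay under 1 for 35 genes and above 1 for 26. Reads without a T-to-C mismatch, set against the whole zygote level, gave a ratio of 0.276 to 1.60 with a median of 0.739. They stood below the zygote level in 43 genes, under 0.5 of it in 12, and above it in 18. For comparison genes, the median of this ratio was 0.908. The lower value among the 61 genes follows in part from the rule, which fixed both the level and a minimum of labelled reads. Reads without a mismatch can also come from new RNA that lacked a conversion or was made before the label, and these cannot be told apart from stored RNA. For most of the genes the data therefore show label in a pool that was still largely unlabelled, and not that the transcripts present in zygotes had been replaced.

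**Figure D3:**
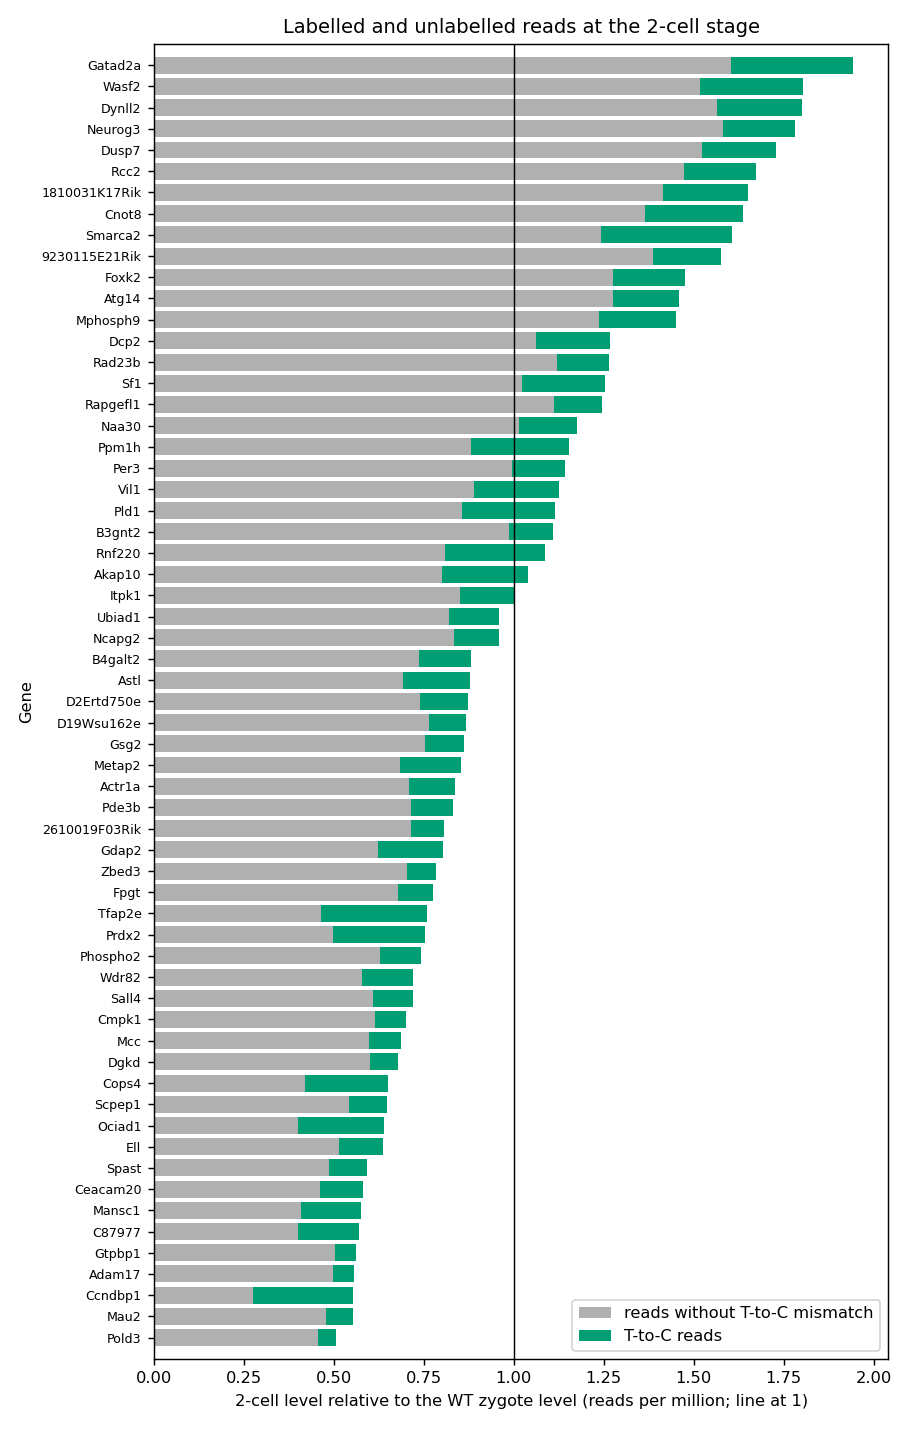
2-cell level of each of the 61 genes relative to its WT zygote level (ratio of RPM, x axis; line at 1), split into reads without a T-to-C mismatch (grey) and T-to-C reads (green). The grey part alone passes 1 in 18 genes and is under 0.5 in 12.

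Among genes for egg and oocyte proteins, Zbed3 (chr13:95323605-95337842, GRCm38), a member of the subcortical maternal complex, had by far the most reads. It had 49780 reads with 667 T-to-C reads in WT zygotes, 27255 with 474 in null zygotes, and 52240 with 5356 in 2-cell embryos. Its T-to-C share was thus 1.34%, 1.74% and 10.3%, so that a gene ranked 2nd in WT zygote reads sat close to the 2-cell share limit. A small nucleolar RNA gene, Snora47, lies within Zbed3, and had 34 T-to-C reads among 87 2-cell reads, few beside those of Zbed3. Astl, which encodes the cortical granule protease ovastacin that cleaves a zona pellucida protein after fertilization, had 516 reads with 10 T-to-C reads in WT zygotes, 282 with 11 in null zygotes, and 606 with 127 in 2-cell embryos. Its share was 1.94%, 3.90% and 21.0%. Both genes kept about 0.7 of the zygote level in reads without a mismatch, 0.703 for Zbed3 and 0.693 for Astl.

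The 3 genes of mRNA decay and splicing carried 2-cell label on top of an unlabelled level at or above that of zygotes. Dcp2, the catalytic subunit of the decapping enzyme, had 1537 reads with 31 T-to-C reads in WT zygotes, 403 with 19 in null zygotes, and 2610 with 425 in 2-cell embryos. Cnot8, a catalytic deadenylase subunit of CCR4-NOT, had 507 with 6, 233 with 4, and 1112 with 185. Sf1, the splicing factor that binds the branch point, had 341 with 6, 184 with 5, and 573 with 106. Their 2-cell shares were 16.3%, 16.6% and 18.5%, and their reads without a mismatch were 1.06, 1.37 and 1.02 times the zygote level. Genes of the decay machinery were thus among the labelled ones, and 2 of 51 listed decay genes in the table met the rule. Of these 51, 17 had enough WT zygote reads to enter. The 2 of 17 stand beside 2.89% of all 2112 genes with enough reads, a small count with no test.

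Chromatin and transcription genes numbered 10, with 2-cell shares of 11.2% to 38.9% and 2-cell levels of 0.554 to 1.94. Gatad2a (chr8:69907069-69996402), a subunit of the NuRD deacetylase complex, had 1608 reads with 16 T-to-C reads in WT zygotes, 1056 with 20 in null zygotes, and 4187 with 731 in 2-cell embryos, a share of 0.995%, 1.89% and 17.5%. Its 2-cell level was the highest of the 61 genes at 1.94, and its unlabelled reads alone were 1.60 times the zygote level. Tfap2e (chr4:126716003-126736269), an AP-2 family transcription factor, had 984 with 28, 489 with 20, and 1001 with 389, a share of 2.85%, 4.09% and 38.9%. Its unlabelled reads were 0.464 of the zygote level, and labelled reads were a larger part of its 2-cell level of 0.759 than for Gatad2a. Smarca2, the BRM ATPase of SWI/SNF remodelling complexes, had 511 with 19, 109 with 1, and 1099 with 249, with a 2-cell share of 22.7% and a level of 1.61.

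Other members of this role are also regulators of transcription. Foxk2, a forkhead factor, had 1126 reads with 28 T-to-C reads in WT zygotes, 580 with 36 in null zygotes, and 2227 with 305 in 2-cell embryos. Sall4, a zinc finger factor of the pluripotent lineage, had 1169 with 30, 509 with 25, and 1126 with 174. Neurog3, a basic helix-loop-helix factor best known from endocrine progenitors, had 484 with 8, 228 with 4, and 1154 with 129. In 2-cell embryos these gave shares of 13.7%, 15.5% and 11.2%. Ell, an RNA polymerase II elongation factor, reached 19.04% with 91 of 478 reads, from 9 of 561 in WT zygotes and 11 of 313 in null zygotes. Mau2, a subunit of the cohesin loader, reached 13.9% on only 32 of 230 reads, and its interval ran from 4.37% to 30.5%.

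Signalling genes, 11 in number, had a median 2-cell share of 13.0% and a highest of 23.6%. Dusp7 (chr9:106368560-106375724), a phosphatase of ERK MAP kinases, had 4089 reads with 73 T-to-C reads in WT zygotes, 3110 with 91 in null zygotes, and 9461 with 1118 in 2-cell embryos, a share of 1.79%, 2.93% and 11.8%. Pld1, which makes phosphatidic acid, had 2066 with 69, 796 with 32, and 3087 with 721, a share of 3.34%, 4.02% and 23.4%. These 2 genes differed in their unlabelled reads, which were 1.52 times the zygote level for Dusp7 and 0.855 for Pld1. Adam17, a sheddase of membrane-bound growth factors and cytokines, was at the low end with 793 with 11, 196 with 0, and 589 with 60, a 2-cell share of 10.2% and a level of 0.555. Gtpbp1, a GTPase, had 24 T-to-C reads of 236 in 2-cell embryos, and its interval of 2.47% to 25.5% reached below the zygote limit. Rapgefl1, related to exchange factors for Rap GTPases, had 75 of 707, or 10.6%.

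Genes of mitosis and cell division, 7 in number, included the highest share of all. Ccndbp1 (chr2:121008395-121016912), a cyclin D binding protein, had 760 reads with 8 T-to-C reads in WT zygotes, 417 with 6 in null zygotes, and 564 with 283 in 2-cell embryos. Its share was 1.05% in WT zygotes, 50.2% (38.8% to 61.5%) in 2-cell embryos, and 1.44% in null zygotes. Unlabelled reads stood at 0.276 of the zygote level, the lowest of the 61 genes. The other 6 genes of this role, among them the haspin kinase gene Gsg2, the condensin II subunit gene Ncapg2 and the microtubule-severing enzyme gene Spast, had shares of 12.1% to 17.9%. Mphosph9, a centriolar protein gene, had 330 with 2, 81 with 6, and 641 with 94.

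Pold3, the accessory subunit of DNA polymerase delta, and Rad23b, a nucleotide excision repair factor, were the 2 genes of DNA replication and repair. Pold3 had 2658 reads with 63 T-to-C reads in WT zygotes, 767 with 36 in null zygotes, and 1805 with 182 in 2-cell embryos. Rad23b had 2038 with 56, 585 with 22, and 3455 with 397. Their 2-cell shares were both low, 10.1% and 11.5%, while their levels lay apart at 0.507 and 1.27 of the zygote. Cytoskeletal genes were 4 and included Wasf2, the WAVE2 activator of actin branching, with 1391 with 25, 526 with 25, and 3360 with 535. Dynll2, a dynein light chain, had 894 with 28, 421 with 23, and 2155 with 280. Both had 2-cell levels of 1.80, with shares of 15.9% and 13.0%.

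Protein processing and turnover accounted for 6 genes with 2-cell shares of 12.6% to 35.5%. Cops4, a subunit of the COP9 signalosome, had 345 reads with 11 T-to-C reads in WT zygotes, 210 with 10 in null zygotes, and 301 with 107 in 2-cell embryos. Metap2, which removes initiator methionine, had 1559 with 32, 341 with 7, and 1780 with 351. Naa30, the catalytic subunit of the NatC acetyltransferase, had 1979 with 51, 907 with 27, and 3113 with 421. The shares of Cops4, Metap2 and Naa30 in 2-cell embryos were 35.5%, 19.7% and 13.5%, and their unlabelled reads were 0.420, 0.684 and 1.02 of the zygote level. Rnf220, a ubiquitin ligase, had 917 with 18, 500 with 2, and 1333 with 339, a 2-cell share of 25.4%.

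All 7 genes of metabolism and glycosylation had unlabelled reads below the zygote level, with a median of 0.678. Of all 61 genes, 43 were below the zygote level. Prdx2, a peroxiredoxin that removes hydrogen peroxide, had 995 reads with 30 T-to-C reads in WT zygotes, 441 with 21 in null zygotes, and 1004 with 340 in 2-cell embryos. Its 2-cell share was 33.9% at a level of 0.753. Phospho2, a phosphatase gene, had 2336 with 90, 837 with 56, and 2318 with 351, and its zygote share of 3.85% was the highest of the 61. Among 9 genes of other or unknown role, Ociad1 reached 37.2% with 119 of 320 2-cell reads, from 5 of 374 in WT zygotes and 0 of 202 in null zygotes. A second row of Ociad1 in the table was labelled throughout, with 41 of 140 reads (29.3%) in WT zygotes, 46 of 112 (41.1%) in null zygotes and 92 of 167 (55.1%) in 2-cell embryos. The row used here is the one with the most reads, and the sources used here do not say what distinguishes the rows. Second rows of Sf1 and Ppm1h had 2-cell shares of 21.5% and 1.49%, so the label of Ppm1h, at 23.6% in the row used, was not seen in both.

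Null zygotes give a measure that the rule did not use. There the T-to-C share of the 61 genes had a median of 2.05%, with a highest value of 7.41% in Mphosph9, which rests on 6 of 81 reads. The median of 784 comparison genes with at least 50 null reads was 2.38%. Pooled over reads, the share was 2.36% (2.03% to 2.73%) for the 61 genes and 2.99% (2.84% to 3.15%) for comparison genes. Zbed3 decided this gap: without it the 61 genes stood at 3.003% (2.48% to 3.60%). In WT zygotes the pooled shares were 1.77% for the 61 genes and 2.13% for comparison genes. There too the gap rested on Zbed3, since the share was 2.13% for the 61 genes without it. In null zygotes, which set was higher depended on the limits. For genes with a 2-cell share of at least 15%, the median null share was 2.61% against 2.36% for the comparison genes of that limit, and the pooled share 3.31% against 2.89%. With distinct rows of a gene summed, the medians were 2.49% against 2.38%. The comparison genes were themselves partly labelled, with 100 of 786 at 4% or more in 2-cell embryos.

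A null share of at least 4% was found in 17 of the 61 genes (27.9%), in 26.8% of comparison genes, and in 34.1% of all genes with enough reads. None of the 61 reached 10% in null zygotes, against 16 of 784 comparison genes (2.04%) and 6.04% of all genes. The null share was above the WT zygote share in 38 of 61 (62.3%), in 56.2% of comparison genes and in 56% of all. The highest null shares after Mphosph9 were 6.69% in Phospho2, 6.21% in Foxk2, 5.46% in Dynll2 and 4.91% in Sall4. The intervals of the null and the WT zygote share overlapped for all 61 genes, which was not counted for other genes. At this depth the intervals are wide, up to 22.7% in null zygotes for Smarca2, so overlap does not show equal shares. No T-to-C read was seen in null zygotes for 9 of the 61 genes (14.8%), for 14.2% of comparison genes and for 12.8% of all. The depth there was small: 0 of 242 reads for Ppm1h allows a share of up to 8.68% at a floor of 3 molecules, and its 2-sided interval ends at 10.1%.

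**Figure D4:**
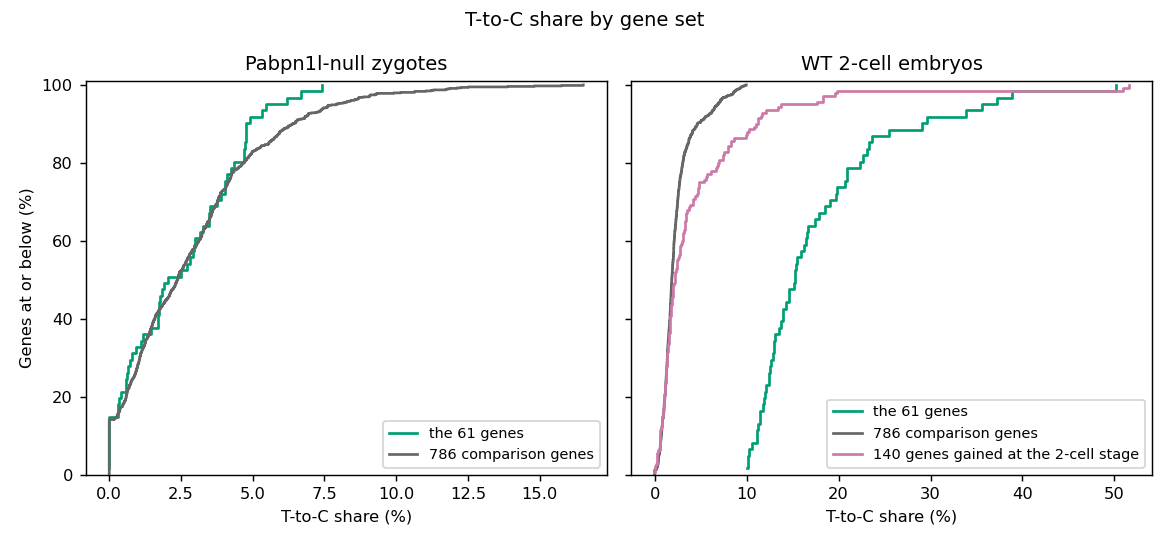
Cumulative share of genes (percent, y axis) at or below a given T-to-C share (percent, x axis) in Pabpn1l-null zygotes (left) and WT 2-cell embryos (right), for the 61 genes, 786 comparison genes (784 with enough null reads on the left) and, on the right, 140 genes gained at the 2-cell stage. On the left the curves run close together, with medians of 2.05% and 2.38%, while the separation on the right is set by the rule.

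Over bins of the 2-cell share, the median null share of comparison genes was 1.27% at 0 to 1%, 2.41% at 1 to 2%, 2.68% at 2 to 4%, 2.92% at 4 to 6% and 2.28% at 6 to 10%. It was thus higher in each bin up to 6% and lower in the next. Of the 61 genes, the 29 at 10 to 15% had a median of 1.74%, the 16 at 15 to 20% had 3.34%, and the 16 above 20% had 1.57%, with no order among them. Spearman's rho between the 2-cell share and the null share over the 61 genes was 0.13, a description of genes that share the same libraries. Against the 2-cell level rho was -0.15, and against the WT zygote reads -0.05.

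The deposited table also holds a Positive or Negative call of the authors for each gene and group, by a rule that the sources used here do not state. In the authors' deposited table, 60 of the 61 genes were Positive in 2-cell embryos, with Gtpbp1 Negative, 12 in WT zygotes and 23 (37.7%) in null zygotes. The calls in 2-cell embryos and WT zygotes belong to columns that the rule used, so they are a description and no check on the rule. For comparison genes, the authors' deposited table has 28.6% Positive in 2-cell embryos, 16.2% in WT zygotes and 26.0% in null zygotes.

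Total reads of the 61 genes differed little between null and WT zygotes. The comparison shares its WT column with the rule. None of the 61 genes was 2-fold or more higher or lower in null zygotes, where 1.61% of the 2112 genes with 300 WT zygote reads were higher and 4.92% lower, and where 9 and 29 of the 786 comparison genes were. The log2 ratio of null to WT, with 0.5 molecule added, had a median of 0.12 over the 61 genes, a range of -0.98 to 0.94, and quartiles of -0.25 and 0.35. It was -0.06 for comparison genes and -0.10 for all 2112. The ratio was above 0 on this scale in 36 of 61 (59.0%) and in 45.4% of comparison genes. Summed reads gave a null to WT ratio of 1.16 (1.13 to 1.19), and 1.05 (1.01 to 1.09) without Zbed3.

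**Figure D5:**
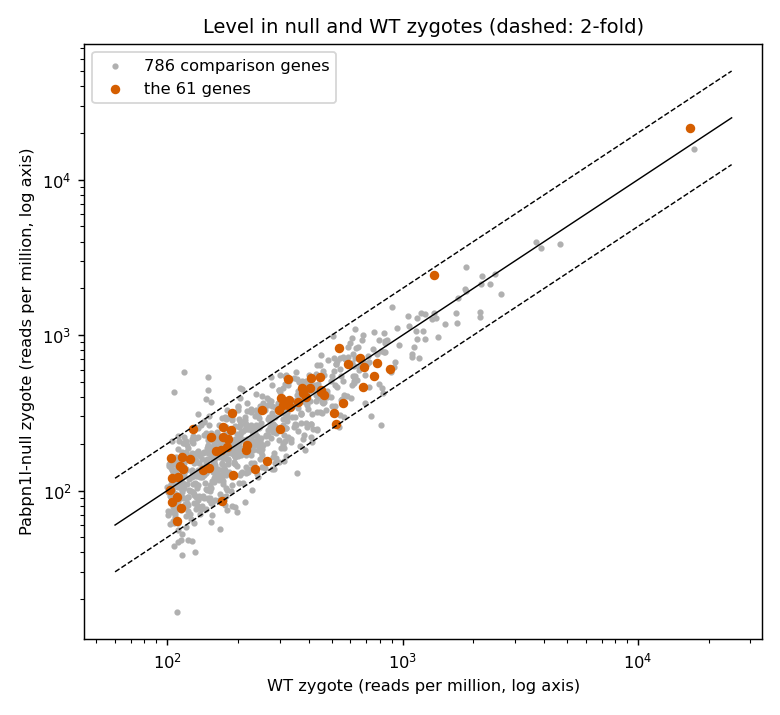
Level in Pabpn1l-null zygotes against WT zygotes (RPM, both axes log) for the 61 genes (orange) and 786 comparison genes (grey); the solid line marks equal levels and the dashed lines 2-fold. All 61 genes lie between the dashed lines, with log2 ratios from -0.98 to 0.94.

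Intervals of single genes left out a ratio of 1 no more often than elsewhere. By counting interval, 7 of the 61 (11.5%) were higher in null zygotes and 9 (14.8%) lower, beside 13.2% and 15.8% of comparison genes and 11.8% and 18.7% of the 2112. These intervals compare 2 columns and not genotypes. The higher ones included Zbed3 with a ratio of 1.29 (1.24 to 1.35), Gatad2a with 1.55 (1.26 to 1.91), Dusp7 with 1.80 (1.58 to 2.04) and the galactosyltransferase gene B4galt2 with 1.93 (1.27 to 2.92). The lower ones included Smarca2 at 0.504 (0.272 to 0.879), Metap2 at 0.517 (0.371 to 0.707), Dcp2 at 0.620 (0.455 to 0.831), and both replication and repair genes, Rad23b at 0.678 and Pold3 at 0.682. With TMM or RLE scaling of the columns, Smarca2 and Metap2 passed 2-fold lower. Cnot8, of mRNA decay like Dcp2, was at 1.09. The genes of egg proteins, Zbed3 and Astl, both had a ratio of 1.29, but the interval of Astl, 0.857 to 1.92, included 1.

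Of the 61 genes, 11 (18.03%) were on at least 1 of 20 pathway lists, a share near the 19.7% of all 2112 genes with 300 WT zygote reads and the 22.9% of comparison genes. No list held more than 2 of the 61, and 9 lists held at least 1. The counts below stand beside shares over the 2112 genes of 2.89% for being among the 61, 1.61% for a 2-fold higher level in null zygotes and 4.92% for a lower one. The list of maternal mRNA decay machinery had 17 genes with 300 WT zygote reads, of which 2, Cnot8 and Dcp2, were among the 61, while 2 of the 17 were 2-fold higher and 2 lower in null zygotes. Of 51 chromatin regulators with 300 reads, 2 were among the 61 (Gatad2a and Smarca2), and 0 were 2-fold higher and 5 lower in null zygotes. Of 46 oocyte-expressed genes, 1 was (Zbed3), with 5 higher and 2 lower. The lists of polymerase II and elongation genes (Ell), ubiquitin and proteasome genes (Rnf220), replication and repair genes (Pold3), kinases and phosphatases (Dusp7), cytoskeletal genes (Dynll2) and stress-response transcription factors (Foxk2) held 1 each. Of 14 genes of major genome activation with 300 zygote reads, none was among the 61, nor was any of the 2 early 2-cell genes.

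The genes shared few features beyond the rule. All but 1 were protein-coding, and the exception, 9230115E21Rik, is a long non-coding RNA gene. Their median genomic span was 26616 bp, against 35493 bp for comparison genes. Chromosome 4 carried 10 of the 61 (16.4%, against 8.17% of comparison genes), and the X chromosome carried none, against 25 of 783 comparison genes (3.19%). The sources used here do not state the strand used in counting, and 16 of the 61 overlap another gene of the table. For Vil1, with 104 2-cell T-to-C reads, the overlapping gene Usp37 had more, 136, so its label is uncertain.

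Promoters in RefSeq were matched for 52 of the 61 genes, with 62 windows of 300 bases (250 before to 50 after the start). Their median GC content was 63.7%, close to 64.0% in 926 windows of comparison genes and above 52.7% in all 32851 windows. GGGCGG on either strand was in 67.7% of the windows, in 68.7% of those of comparison genes and in 35.7% of all, as common as in comparison genes and more common than in all promoters. CCAAT was in 33.9%, 36.6% and 37.4%, and CCGGAAG, read by Ets factors, in 21.0%, 15.6% and 8.86%. Less common were TTTCCCGC, read by E2F, in 6.45% (1.79% to 15.7%), 2.05% and 1.07%, and the YY1 motif in 4.84%, 1.94% and 0.852%. The E2F letters stood at Atg14, Mphosph9, Ncapg2 and Pold3, and those of YY1 at Ell, Gtpbp1 and Wdr82. TATAAA was in 4.84%, 6.59% and 13.6%, and TAATCC, read by OBOX and OTX factors, in 1.61%, 5.40% and 7.06%. A search of 12 motifs over 62 windows leaves wide intervals, and the matches describe letters, not binding.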

How the data were processed

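Per the labels, reads came from S4U-labelled, iodoacetamide-treated total RNA depleted of ribosomal RNA. Reads were placed on mm10, per the submitters' processing notes; the sources used here do not give aligner, counter, annotation or strand. Each row of the deposited table holds the authors' counts of reads and of T-to-C reads for every group, and the authors' Positive or Negative call. It has 30493 rows; 47 with a date for a name were left out, and the row with most reads was kept per gene. All count columns were used (0 were left unmapped).

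Counts were scaled to the column total (RPM). Log2 ratios of null to WT zygotes had 0.5 molecule (3.5 reads at the mean column total) added to both columns, in proportion to their totals. Ratios printed with an interval had nothing added, and 7 reads counted as 1 molecule in intervals. With 1 column pair per group no test was run. TMM and RLE factors were alternatives (edgeR 4.0.16 in R 4.3.3; otherwise Python 3.11.15, numpy 2.4.6, pandas 2.3.3, scipy 1.17.1). Scripts were tested on simulated data. RefSeq tables on GRCm38.p6 gave promoters and positions.

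Members and lists were chosen with earlier results of these data known, and roles were assigned by hand once the members were known. Named are the 10 genes with most 2-cell T-to-C reads, the 5 highest and lowest 2-cell shares and levels, the 5 highest null shares, up to 4 per list, and those next to each limit, without unnamed genes. Astl, Sf1, B4galt2, 9230115E21Rik, Ppm1h, Vil1, Usp37, Snora47 and others given for a role, motif or second row were named after their values were seen.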

Additional observations from a re-analysis of the deposited data

How the results depend on the processing

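The rule found 44 to 68 genes under 6 alternatives (65 with TMM, 60 of them shared; 64 with RLE, 52 shared), but 32 with a 2-cell share of at least 15% and 38 with a level of 0.67 to 1.5. The median log2 ratio of null to WT zygotes was 0.024 with TMM and 0.030 with RLE for the 61 genes, and -0.16 with TMM, -0.15 with RLE and -0.081 with at least 500 WT zygote reads for comparison genes. With TMM and with RLE, 2 of the 61 genes were 2-fold lower. The median null T-to-C share of the genes was 2.49% with at least 150 null reads, 2.61% with a 2-cell share of at least 15% and 2.49% with rows summed. For comparison genes it was 2.58%, 2.36% and 2.38% under the same alternatives, so the order of the sets turned under the last 2, and 2.17% with a zygote share under 3%. The pooled null share of the genes was 3.31% with a 2-cell share of at least 15% (comparison genes 2.89%) and 3.003% without Zbed3 (comparison genes 2.99%), and that of comparison genes 2.83% with a zygote share under 3%. The cause was not tested. With every read counted as 1 molecule, 25 genes were higher and 17 lower in null zygotes by interval. With 7 reads as 1 molecule in the null column alone, 10 were higher and 10 lower. The other 34 alternatives to these values moved a count by at most 1.5 times or a value by no more than its counting interval. The alternatives with no addition, with no name left out and without the top comparison gene were chosen after seeing the data.

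No paired analysis was possible because each group has 1 pair of columns, with no replicate numbers, and for the same reason no replicate could be left out. The null column is the shallowest and comes in clumps, so a null share of 10% lay above the interval of only 18 of the 61 genes. No null T-to-C read was seen for 9 (14.8%, against 14.2% of comparison genes). Differences between single genes in null zygotes were mostly not detectable at this depth.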
